A study of Mus musculus with 9 samples.

Results

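Dlk1 and 7 other imprinted genes (Meg3, Mest, Peg3, Plagl1, Grb10, Ndn and H19) were followed on 9 expression arrays of mouse 3T3-L1 cells, an established line of pre-adipocytes that can be turned into fat cells in culture. A gene was represented by the probe set whose platform symbol was that gene alone, and by the brightest such probe set where there were several. Of 22180 genes named in this way, 7 were members. H19 was present only on a probe set shared with Mir675. The arrays formed 3 groups of 3. The first group received 100 nmol of siRNA against CD24 and then 0.5 mM IBMX with 1 µM dexamethasone (Dex) for 6 h. The second received the same amount of scrambled siRNA and the same IBMX and Dex for 6 h. The third received vehicle. All cells were kept for 48 h after confluence to arrest growth, and 250 ng of RNA was labelled per array. IBMX blocks phosphodiesterases and so raises cAMP, and Dex is a synthetic glucocorticoid. Both are parts of the usual mixture that starts fat cell differentiation. The labels do not say whether vehicle cells received an siRNA. In every comparison with vehicle, siRNA treatment and IBMX/Dex therefore cannot be told apart. Nor do the labels say whether the replicates came from separate cultures. A p-value here is therefore set only by how much these arrays vary, which may be technical.

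An imprinted gene is expressed mainly from the copy inherited from a single parent, and the choice rests on DNA methylation set in the germ line. Several imprinted genes act in growth and in fat tissue. Dlk1, also called Pref-1, is a membrane protein with EGF-like repeats whose shed outer part holds pre-adipocytes back from differentiation. It is abundant in 3T3-L1 pre-adipocytes, is lost as they become adipocytes, and has been described as lowered by Dex in these cells. Dlk1 is expressed from the paternal copy, and the long non-coding RNA Meg3 is expressed from the maternal copy of the same cluster.

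The promoters of Dlk1, Meg3 and Peg3 are shown because their letters differ at the cAMP response element (CRE), the site bound by the factors that cAMP activates. Each runs from 250 bases before to 50 bases after a RefSeq start in GRCm38.p6, and 7 of the 8 members had an entry (not H19). Dlk1 lies on the plus strand at chr12:109452573-109452872, the upstream of 2 Meg3 starts on the plus strand at chr12:109540746-109541045, and Peg3 on the minus strand at chr7:6730370-6730669. Capitals mark the full CRE, TGACGTCA, in Meg3 and Peg3, and the 5-base core TGACG in Dlk1.
Dlk1: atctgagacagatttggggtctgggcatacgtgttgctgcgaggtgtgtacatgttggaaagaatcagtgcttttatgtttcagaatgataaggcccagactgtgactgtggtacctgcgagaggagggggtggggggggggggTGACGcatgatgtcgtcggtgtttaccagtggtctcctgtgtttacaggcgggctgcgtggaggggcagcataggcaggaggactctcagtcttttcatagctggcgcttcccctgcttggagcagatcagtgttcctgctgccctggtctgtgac
Meg3: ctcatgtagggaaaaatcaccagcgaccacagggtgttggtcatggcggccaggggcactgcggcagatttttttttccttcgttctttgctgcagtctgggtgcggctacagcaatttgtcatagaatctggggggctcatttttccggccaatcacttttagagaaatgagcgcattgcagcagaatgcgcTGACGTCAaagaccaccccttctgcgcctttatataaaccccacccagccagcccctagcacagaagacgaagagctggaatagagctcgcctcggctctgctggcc
Peg3: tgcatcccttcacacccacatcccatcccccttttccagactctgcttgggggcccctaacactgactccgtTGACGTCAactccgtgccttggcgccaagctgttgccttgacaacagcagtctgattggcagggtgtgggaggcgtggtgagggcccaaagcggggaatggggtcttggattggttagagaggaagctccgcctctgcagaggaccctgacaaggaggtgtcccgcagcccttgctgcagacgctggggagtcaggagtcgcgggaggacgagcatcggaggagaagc
The full CRE stood at position -57 from the Meg3 start and at position -178 from the Peg3 start. Searched on both strands, it was in 1.79% of 32851 promoters of the same length. The Dlk1 window held only the core, at position -106, and the core, which is contained in the full CRE, was in 20.8% of all promoters. Grb10 also held the core, at position -160, in 1 of its windows. The window of the second Meg3 start held neither, nor did those of Ndn, Mest and Plagl1. The full palindrome of the glucocorticoid response element matched no member's window and 0.00913% of all. A match or its lack describes these letters in these windows and nothing about binding.

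The array medians lay between 6.47 and 6.56 log2 units, and arrays within a group correlated at 0.963 to 0.990 across probe sets. A list of 10 genes known to respond to cAMP or glucocorticoid rose in full in both comparisons with vehicle. It was chosen with earlier results of these data known, so its rise is no independent check of the treatment. By the test described below, 2.92% of all tested genes were higher with CD24 siRNA and 3.33% with scrambled siRNA. Among the 10, Fkbp5, a glucocorticoid target, rose 3.47-fold with CD24 siRNA and IBMX/Dex and 3.58-fold with scrambled siRNA and IBMX/Dex. Nr4a1, a cAMP-responsive nuclear receptor, rose 8.08-fold and 9.71-fold in the same comparisons. Cd24a, the gene targeted by the siRNA, measured 10.15, 10.16 and 11.72 with CD24 siRNA (replicates 1 to 3), 11.19, 11.73 and 11.81 with scrambled siRNA, and 8.88, 9.92 and 9.49 with vehicle. The library labelled CD24 siRNA replicate 3 differed from its scrambled counterpart by -0.10, against -1.04 and -1.57 for the other replicates, and the differences of the members that include it are also given without it. The mean Cd24a difference between the siRNAs was -0.90 ± 0.43 (SE, unadjusted p = 0.0638 in limma's test, or 0.0118 with the block described below). The target itself was thus not called between the siRNAs after adjustment, in the fits below with or without a block. A second Cd24a probe set differed between the siRNAs by -2.05, -2.03 and -0.18 in replicates 1 to 3.

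Of the 8 members, 3 (Dlk1, Peg3 and Ndn) passed a filter on low values and were tested, 4 (Meg3, Mest, Plagl1 and Grb10) did not, and H19 had no probe set of its own. The filter asked that the third highest of the 9 values reach 6.51, the median of all values. No tested member passed limma's moderated test at a Benjamini-Hochberg adjusted p of 0.05 over 12630 genes in any of the 3 comparisons, and 0 of these 3 had an unadjusted p under 0.05. Over all tested genes, 22.2% had an unadjusted p under 0.05 with CD24 siRNA against vehicle and 22.7% with scrambled siRNA against vehicle. Against vehicle, 6.65% of all tested genes passed with CD24 siRNA and IBMX/Dex, and 6.94% passed with scrambled siRNA and IBMX/Dex. Between CD24 siRNA and scrambled siRNA, 0% passed (0 genes, with 30 at an unadjusted p under 0.05). By direction, 2.92% were higher and 3.73% lower with CD24 siRNA and IBMX/Dex than with vehicle. With scrambled siRNA and IBMX/Dex against vehicle, 3.33% were higher and 3.6% lower.

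Arrays with the same replicate number varied together across groups, so the fit was also made with replicate number as a block. Then 22.4% of genes passed with CD24 siRNA and IBMX/Dex against vehicle (10.4% higher, 12.1% lower) and 23.3% with scrambled siRNA and IBMX/Dex against vehicle (11.9% higher, 11.4% lower), and 0% between the siRNAs. Of the 3 tested members, 1, Peg3, passed against vehicle in both comparisons, and it was higher. Peg3 and Ndn had an unadjusted p under 0.05 in both, beside 35.2% of tested genes with CD24 siRNA and 36% with scrambled siRNA. No tested member had groups without overlap against vehicle, whereas 25.8% of tested genes had with CD24 siRNA (12.1% higher, 13.7% lower) and 25.2% with scrambled siRNA (12.8% higher, 12.4% lower). Between CD24 siRNA and scrambled siRNA that share was 2.41% (0.879% higher, 1.54% lower), again with no member.

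Dlk1 was bright and nearly level on all arrays. Its probe set (17278647) measured 12.19, 12.22 and 12.27 log2 units with CD24 siRNA and IBMX/Dex (replicates 1, 2 and 3), 12.16, 12.38 and 12.23 with scrambled siRNA and IBMX/Dex, and 12.44, 12.27 and 12.30 with vehicle. The highest array was vehicle replicate 1, and CD24 siRNA replicate 3 and vehicle replicate 2 held the same value, so the groups met or overlapped. The means were 12.23 ± 0.040, 12.26 ± 0.11 and 12.34 ± 0.089 (SD, n = 3 each) in that order. Same-numbered differences from vehicle were -0.25, -0.05 and -0.03 with CD24 siRNA and -0.28, 0.11 and -0.07 with scrambled siRNA, so the sign was not shared by all replicates in the second. Only 5.31% of tested genes had a smaller SD over the 9 arrays.

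The intervals of the Dlk1 differences were narrow. With CD24 siRNA and IBMX/Dex it differed from vehicle by -0.11 ± 0.10 (SE), with a 95% interval of 0.790-fold to 1.09-fold (limma adjusted p = 0.586). With scrambled siRNA and IBMX/Dex the difference from vehicle was -0.081 ± 0.10, an interval of 0.807-fold to 1.11-fold (adjusted p = 0.704). Between CD24 siRNA and scrambled siRNA the difference was -0.030 ± 0.10, an interval of 0.835-fold to 1.15-fold (adjusted p = 1). None of the differences passed in the fit with the block either (adjusted p = 0.482 and 0.622 against vehicle). Without CD24 siRNA replicate 3, Dlk1 differed by -0.13 from vehicle (adjusted p = 0.605) and by -0.052 from scrambled siRNA (adjusted p = 1). In bulk RNA, fewer cells of a type and less RNA per cell cannot be told apart.

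**Figure D1:**
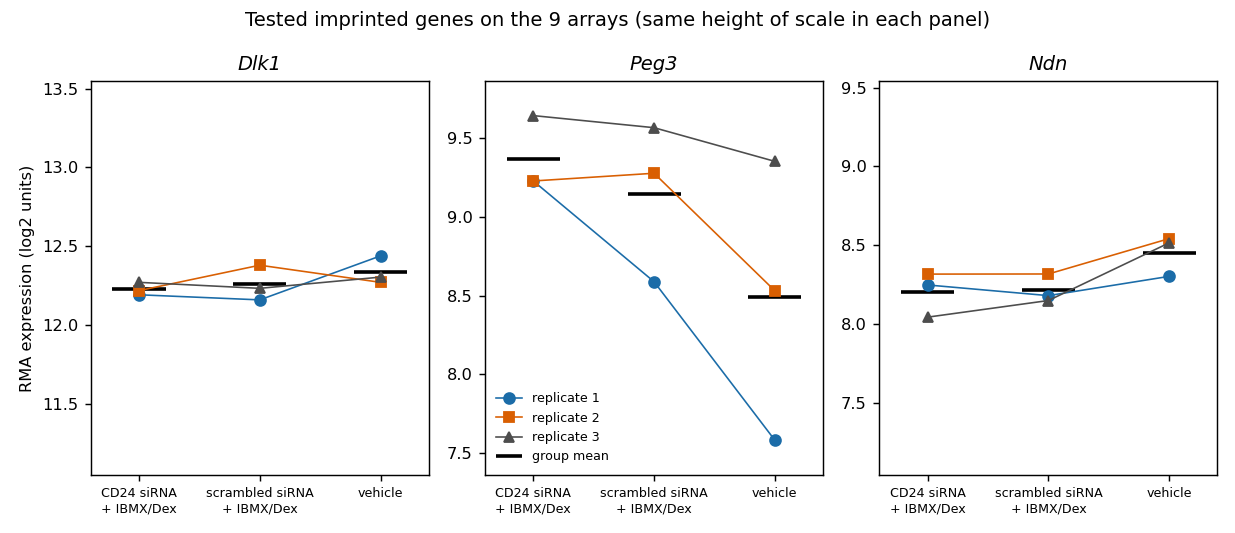
Log2 expression (vertical axis) of Dlk1, Peg3 and Ndn on each array, by group, with a point for each replicate, a line joining arrays of the same replicate number and a bar for the group mean. Dlk1 stays between 12.16 and 12.44, Peg3 spreads from 7.58 to 9.64, and the vehicle Ndn values lie mostly above the others.

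Peg3, a paternally expressed zinc-finger gene, varied most among the members, and 96.5% of tested genes had a smaller SD over the arrays. Its probe set (17486110) measured 9.23, 9.23 and 9.64 with CD24 siRNA and IBMX/Dex, 8.59, 9.28 and 9.57 with scrambled siRNA and IBMX/Dex, and 7.58, 8.53 and 9.35 with vehicle. Vehicle replicate 1 was lowest and the groups overlapped. Every same-numbered difference from vehicle was positive: 1.65, 0.70 and 0.29 with CD24 siRNA, and 1.01, 0.75 and 0.21 with scrambled siRNA. The same-numbered differences between CD24 and scrambled siRNA were 0.64, -0.05 and 0.08, without a shared sign.

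For Peg3, the difference from vehicle with CD24 siRNA and IBMX/Dex was 0.88 ± 0.41 log2, a 1.84-fold ratio (adjusted p = 0.248; 0.0161 with the replicate block). With scrambled siRNA and IBMX/Dex it was 0.66 ± 0.41 (adjusted p = 0.389; 0.0499 with the block). Between the siRNAs it was 0.22 ± 0.41, with a 95% interval of -0.70 to 1.15 (adjusted p = 1). Vehicle replicates 1 and 3 moved these values most: without replicate 1 the differences from vehicle were 0.42 with CD24 siRNA and 0.20 with scrambled siRNA, and without replicate 3 they were 1.31 and 1.09. Without CD24 siRNA replicate 3, the difference from vehicle was 0.74 (adjusted p = 0.469), or 1.06 with the block (0.0187), and the difference from scrambled siRNA was 0.084, or 0.41 with the block (adjusted p = 1 in each). Peg3 thus passed against vehicle with the block and not without it. The blocked call for CD24 siRNA was lost without CD24 siRNA replicate 1 (adjusted p = 0.0605) or without vehicle replicate 1 (0.0656), and that for scrambled siRNA was lost without CD24 siRNA replicate 2, any scrambled siRNA array, or vehicle replicate 1 or 2 (0.0518 to 0.214), and without the filter (0.101). A second probe set, shared by Peg3 and its antisense neighbour Peg3os, differed from vehicle by 1.10, 0.30 and -0.15 with CD24 siRNA and by 1.00, 0.67 and -0.06 with scrambled siRNA, so its replicate 3 did not show the positive sign.

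Ndn encodes necdin, a growth-suppressing MAGE-family protein that holds back fat cell formation, and it is expressed from the paternal copy. Its probe set (17478789) measured 8.25, 8.32 and 8.04 with CD24 siRNA and IBMX/Dex, 8.18, 8.32 and 8.15 with scrambled siRNA and IBMX/Dex, and 8.30, 8.54 and 8.51 with vehicle. All 6 same-numbered differences from vehicle were negative, while the groups overlapped at 8.30 to 8.32. The mean difference was -0.25 ± 0.12 with CD24 siRNA (adjusted p = 0.251; 0.114 with the block) and -0.24 ± 0.12 with scrambled siRNA (0.272; 0.128 with the block). Neither passed. Between the siRNAs the difference had a 95% interval of -0.28 to 0.25 (adjusted p = 1). Without CD24 siRNA replicate 3, Ndn differed from vehicle by -0.17 (adjusted p = 0.513) and from scrambled siRNA by 0.067 (adjusted p = 1), the second with the opposite sign.

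**Figure D2:**
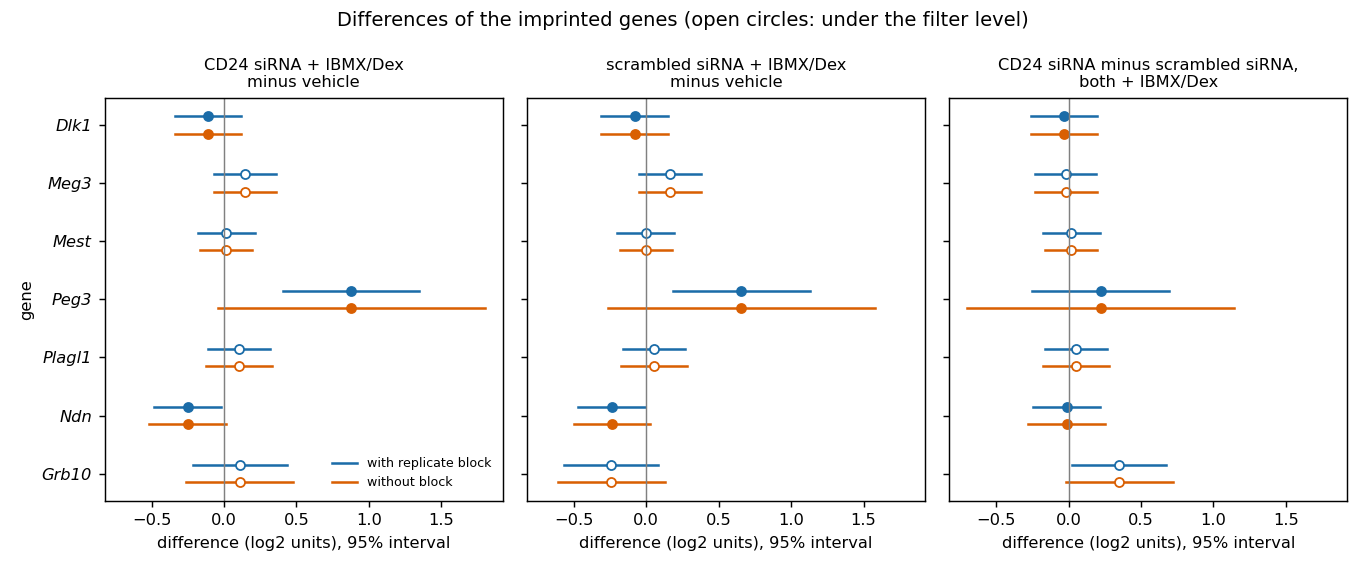
Log2 difference (horizontal axis) with its unadjusted 95% interval for 7 members in the 3 comparisons, with the replicate block (blue) and without it (orange); open circles are genes under the filter. The Dlk1 intervals cross 0 in each comparison, and the Peg3 interval for CD24 siRNA against vehicle spans -0.04 to 1.80 without the block and 0.41 to 1.35 with it.

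The 4 members under the filter stayed below 6.51 on every array, and the groups overlapped for each of them. Meg3 measured 6.13, 6.17 and 6.15 with CD24 siRNA and IBMX/Dex, 6.14, 6.21 and 6.16 with scrambled siRNA and IBMX/Dex, and 6.00, 6.14 and 5.87 with vehicle. Its mean difference from vehicle was 0.14 with CD24 siRNA and 0.16 with scrambled siRNA (adjusted p = 0.554 and 0.462 in limma's fit without the filter). Without CD24 siRNA replicate 3, an alternative added after seeing the data, the CD24 siRNA difference was 0.14 (adjusted p = 0.700). Probe sets that Meg3 shares with microRNA genes lay at 6.32 to 6.60 and 4.57 to 4.88. Mest, which encodes a hydrolase-like membrane protein and is a paternal gene, measured 5.86 on all arrays with CD24 siRNA, 5.86, 5.86 and 5.80 with scrambled siRNA, and 5.86, 5.81 and 5.87 with vehicle, and 6 of the 9 arrays held exactly the same value. Plagl1, a zinc-finger gene that restrains growth, measured 5.86, 6.01 and 6.13 with CD24 siRNA, 5.93, 5.92 and 6.00 with scrambled siRNA, and 5.80, 5.99 and 5.91 with vehicle. Its second probe set lay between 2.34 and 3.09.

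Grb10 encodes an adaptor that dampens insulin and IGF signalling. It measured 5.97, 6.20 and 6.41 with CD24 siRNA and IBMX/Dex, 5.90, 5.52 and 6.11 with scrambled siRNA and IBMX/Dex, and 6.04, 6.14 and 6.08 with vehicle. Scrambled siRNA replicate 2 was lowest. The difference between CD24 and scrambled siRNA was 0.35 ± 0.16 (unadjusted p = 0.0600, adjusted p = 1 in limma's fit without the filter). With the block, limma's unadjusted p was 0.0368 and the adjusted p was 1 as well. Without CD24 siRNA replicate 3, the highest array, the difference was 0.24 ± 0.17 (unadjusted p = 0.201, adjusted p = 1). With the block it was then 0.31 (unadjusted p = 0.121 in limma's fit). Leaving out that array here was added after seeing the data. The probe set shared by H19, a maternal non-coding RNA, and Mir675 measured 5.72, 5.83 and 5.94 with CD24 siRNA, 5.99, 5.76 and 5.91 with scrambled siRNA, and 5.82, 5.83 and 6.01 with vehicle, and all groups overlapped.

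**Figure D3:**
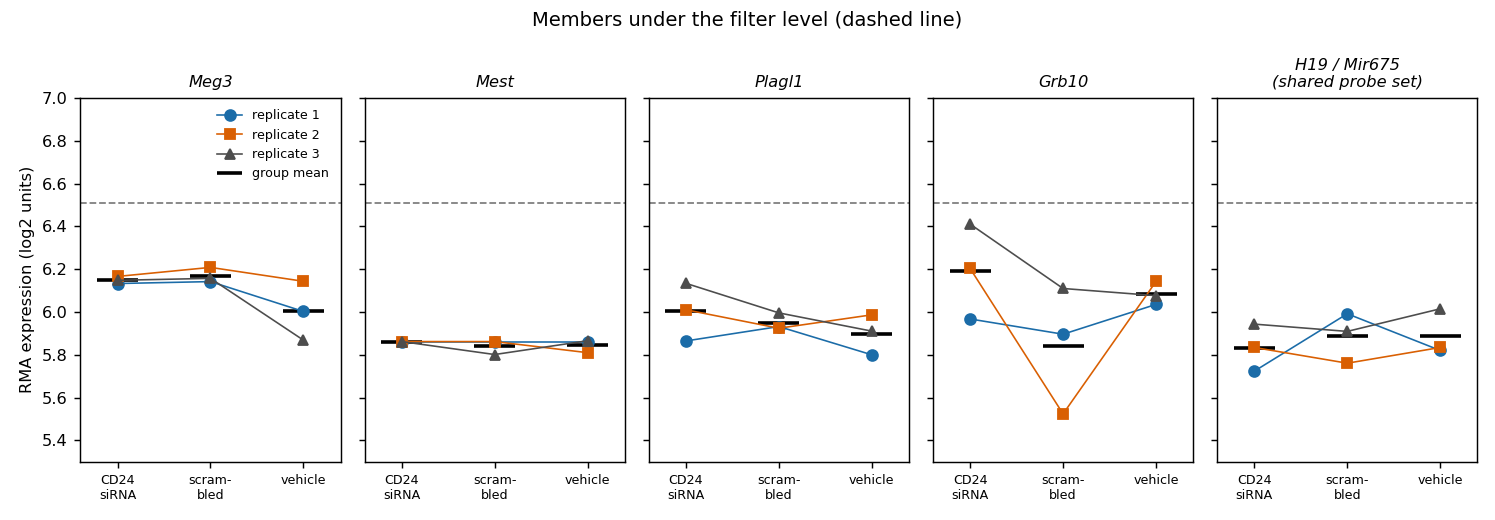
Log2 expression of the members under the filter and of the shared H19 probe set, by group and array, with bars for group means and a dashed line at the filter level of 6.51; the CD24 and scrambled siRNA groups both received IBMX/Dex. The values lie between 5.52 and 6.41 and the groups overlap.

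The spread of each member was divided into shares, as a description without a test. Of the sum of squares of Peg3 over the 9 arrays, 36.3% lay between groups, 48.5% between replicate numbers and 15.1% in the rest. For Dlk1 the shares were 30.8%, 1.78% and 67.4%, and for Ndn 56.8%, 22.2% and 21.1%. Among members under the filter, the share between groups ran from 13.4% for Mest to 54.2% for Meg3, and Plagl1 had 48.0% between replicate numbers. These can be shares of a small spread. The SD over the 9 arrays was 0.025 for Mest, 0.11 for Meg3, 0.096 for Plagl1 and 0.089 for Dlk1. The median over tested genes was 0.21. The median shares over tested genes were 28.3%, 36.2% and 21.6%.

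**Figure D4:**
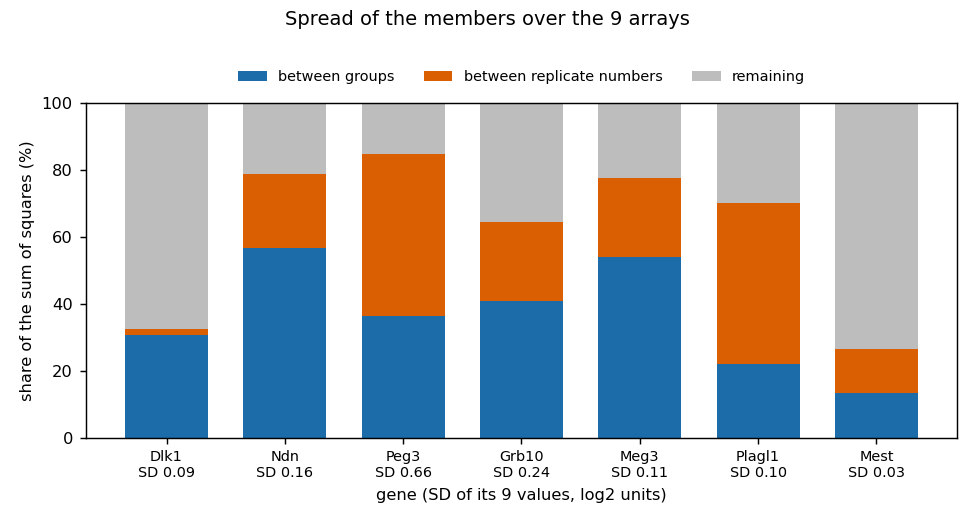
Share of the sum of squares over the 9 arrays (percent) between groups, between replicate numbers and remaining, for each member. Replicate number takes 48.5% for Peg3 and 1.78% for Dlk1.

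Other genes were ranked by how closely they followed each member over the 9 arrays, after the mean of each replicate number was taken off. Those closest to Dlk1 were Phlda3 (Pearson r = 0.989), Zbtb24 (0.984), Marveld1 (0.969), Cav1 (0.966) and Gm5124 (0.958). The 3 closest to Peg3 were Tbl1xr1, AA543186 and Hpx (0.990 to 0.992). The 3 closest to Ndn were Ppip5k1, Tceal9 and Pqlc3 (0.995 to 0.996). Over 9 arrays in 3 groups, 30, 212 and 834 tested genes exceeded 0.9 for Dlk1, Peg3 and Ndn, so these ranks describe the arrays and carry no test.

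Among 22 other paternally expressed imprinted genes, 14 were tested and 1, Sgce, fell in each comparison with vehicle. Of all tested genes, 6.65% were called with CD24 siRNA and 6.94% with scrambled siRNA. With the block, 1 of the 14 fell with CD24 siRNA, and 1 rose and 2 fell with scrambled siRNA, beside 22.4% and 23.3% of all tested genes called. The parental copy is the one the lists assign, and the arrays do not read it. Sgce encodes epsilon-sarcoglycan and lies beside Peg10. Sgce measured 8.76, 8.87 and 8.57 with CD24 siRNA and IBMX/Dex, 8.90, 8.90 and 8.67 with scrambled siRNA and IBMX/Dex, and 9.16, 9.55 and 9.37 with vehicle. No array of either IBMX/Dex group reached the lowest vehicle array, as for 13.7% of tested genes with CD24 siRNA and 12.4% with scrambled siRNA. The difference was -0.63 ± 0.14 with CD24 siRNA (adjusted p = 0.0293) and -0.54 ± 0.14 with scrambled siRNA (adjusted p = 0.0489). The scrambled siRNA call was lost without any single array except vehicle replicate 1, with adjusted p of 0.0573 to 0.168, and the CD24 siRNA call without any CD24 siRNA array or vehicle replicate 2 or 3 (0.0587 to 0.103). Both were also lost when only the 2 groups compared were fitted (0.0630 and 0.0995), and the scrambled siRNA call without the filter (0.0709), with arrays centred on their medians (0.0598) and with a robust intensity trend (0.0566). In the fit with the block, Sgce had an adjusted p of 0.00411 and 0.00809 in the same order, the second lost without scrambled siRNA replicate 3 (0.0517). There Slc38a4, an amino acid transporter, also fell with scrambled siRNA (adjusted p = 0.0184; lost without scrambled siRNA replicate 1 or 2 or vehicle replicate 1, at 0.0682 to 0.0818), and its difference of -0.43 was -0.14 without scrambled siRNA replicate 3 in the fit without the block. Inpp5f, a phosphoinositide phosphatase, rose there with scrambled siRNA (0.0212; lost without scrambled siRNA replicate 2 or vehicle replicate 1 or 2, at 0.0689 to 0.117). Peg10, a gene derived from a retrotransposon and named here as the neighbour of Sgce after its values were seen, differed by -0.07 and 0.06 (adjusted p = 0.885 and 0.894). Over the 14 genes the median difference was -0.02 with CD24 siRNA and 0.05 with scrambled siRNA, beside 0.02 over all tested genes in each. No gene of this list passed between the siRNAs. The Slc38a4 and Inpp5f calls with scrambled siRNA alone are thus not differences between them.

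Of 24 maternally expressed imprinted genes, 9 were tested and 0 passed limma's test against vehicle without the block. An unadjusted p under 0.05 was held by 2 with CD24 siRNA and 1 with scrambled siRNA, beside 22.2% and 22.7% of all tested genes. With the block, 2 of the 9 fell with CD24 siRNA and 1 with scrambled siRNA, beside 12.1% and 11.4% of all tested genes. Osbpl5, an oxysterol-binding-protein relative, measured 8.87, 8.39 and 8.42 with CD24 siRNA and IBMX/Dex, 8.73, 8.56 and 8.52 with scrambled siRNA and IBMX/Dex, and 9.65, 8.92 and 9.42 with vehicle. Its adjusted p was 0.0537 and 0.0646 against vehicle, or 0.00306 and 0.00386 with the block. Without the block it also passed under quantile normalization (0.0321 and 0.0345), without vehicle replicate 2 (0.0209 and 0.0243) and, with CD24 siRNA, under the filter at the 75th percentile (0.0434), while without CD24 siRNA replicate 3 the CD24 siRNA value was 0.163 (0.0185 with the block). Igf2r, the receptor that clears IGF2, fell with the block with CD24 siRNA (difference -0.39, adjusted p = 0.0334), a call lost without any CD24 siRNA array, without vehicle replicate 1 or 3 (0.0547 to 0.119) and without the filter (0.0674). Without the block, leaving out vehicle replicate 3 moved that difference to -0.096. No gene of this list passed between the siRNAs, so the Igf2r call with CD24 siRNA alone is not a difference between them. Ube3a, a ubiquitin ligase gene, differed by 0.29 with CD24 siRNA and 0.24 with scrambled siRNA (adjusted p = 0.176 and 0.261), and by 0.092 and -0.0064, the second with the opposite sign, when probe sets were averaged. The median difference was -0.11 with CD24 siRNA and -0.06 with scrambled siRNA, beside 0.02 over all tested genes.

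**Figure D5:**
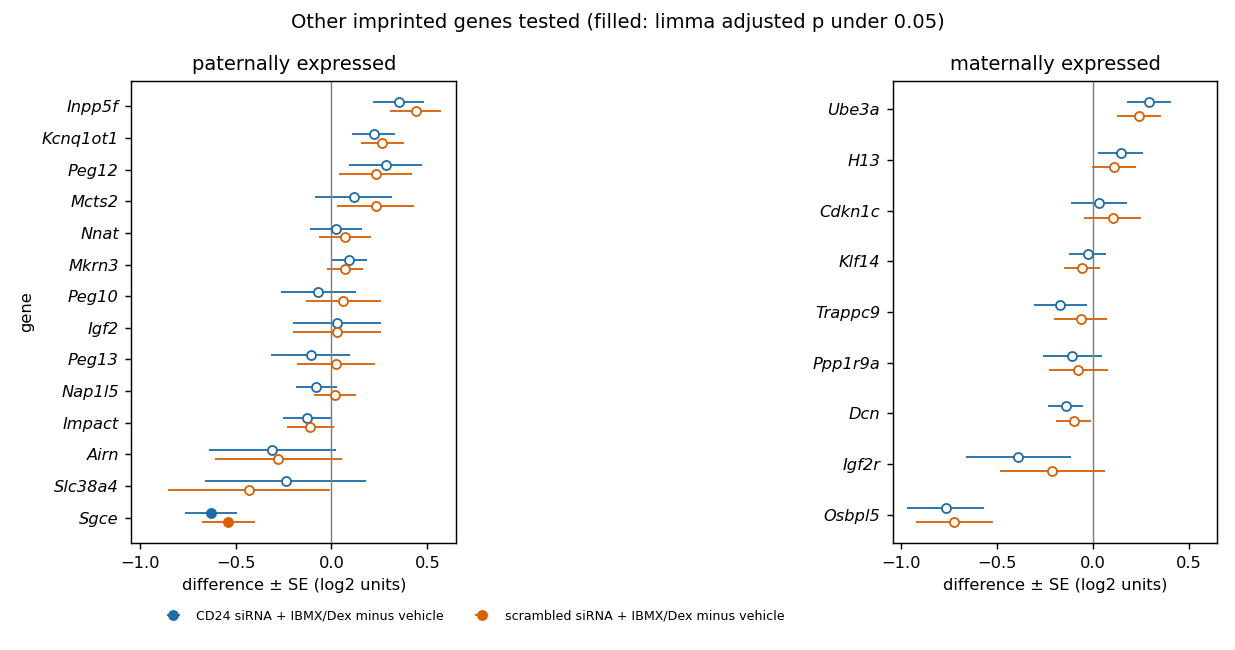
Log2 difference from vehicle with its SE for the other imprinted genes tested, by the parental copy the lists assign. CD24 siRNA and IBMX/Dex is in blue and scrambled siRNA and IBMX/Dex in orange, and filled points passed without the block. Sgce is the gene that passed in both comparisons, at -0.63 with CD24 siRNA and -0.54 with scrambled siRNA.

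Of 18 genes of the Dlk1 pathway (shedding enzyme, partners and targets), 15 were tested and 0 passed limma's test against vehicle without the block. An unadjusted p under 0.05 was held by 4 with CD24 siRNA and 3 with scrambled siRNA, beside 22.2% and 22.7% of all tested genes. With the block, 4 of 15 rose and 3 fell with CD24 siRNA and IBMX/Dex, beside 22.4% of all tested genes called, and 4 rose and 1 fell with scrambled siRNA and IBMX/Dex, beside 23.3%. The median over the 15 genes was 0.03 with CD24 siRNA and 0.18 with scrambled siRNA, beside 0.02 over all tested genes in each.

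Itga5, an integrin subunit, differed from vehicle by 0.87 in both comparisons (adjusted p = 0.0630 with CD24 siRNA and 0.0606 with scrambled siRNA; 0.00547 and 0.00523 with the block). It also passed without the block under the filter at the 75th percentile (0.0498 and 0.0481), and without vehicle replicate 2 the differences were 0.55 and 0.56. Cebpd, a partner of Cebpb in early fat cell formation, fell with the block: the difference was -0.91 with CD24 siRNA (adjusted p = 0.0542; 0.00107 with the block) and -0.54 with scrambled siRNA (0.215; 0.0117 with the block, lost without scrambled siRNA replicate 3 at 0.0767). With the block, no single array ended the Itga5 calls or the CD24 siRNA call of Cebpd; without CD24 siRNA replicate 3 the CD24 siRNA values were 0.0186 for Itga5 and 0.00622 for Cebpd (0.177 and 0.122 without the block).

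Each of the other pathway calls with the block was lost without at least 2 of the 9 arrays. Hes1, a Notch target, differed by 0.51 with CD24 siRNA and 0.57 with scrambled siRNA (adjusted p = 0.0456 and 0.0270), and Cebpb, an early adipogenic factor, by 0.73 and 0.77 (0.0321 and 0.0259). These 4 calls were lost without vehicle replicate 1 or 2, without replicate 1 or 2 of the siRNA group compared, and without the filter; that for Hes1 with CD24 siRNA also without CD24 siRNA replicate 3 or scrambled siRNA replicate 1 or 2, and that for Cebpb with CD24 siRNA also without scrambled siRNA replicate 1. Without the block, leaving out vehicle replicate 2 moved Hes1 to 0.22 and 0.28 and Cebpb to 0.29 and 0.32.

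With CD24 siRNA, Pparg, the main regulator of fat cell identity, differed by 0.40 (adjusted p = 0.0352 with the block), a call lost without replicate 1 or 3 of any group (0.0516 to 0.157) or without the filter. Adam17, the protease that sheds Dlk1, differed by -0.39 (0.0377 with the block), a call lost without any array other than vehicle replicate 2 (0.0527 to 0.162) or without the filter. Sox9, a target of soluble Dlk1, differed by -0.47 (0.0172 with the block), a call lost without CD24 siRNA replicate 2 or vehicle replicate 1 (0.0752 and 0.104). With scrambled siRNA, Map2k1, a MAP kinase kinase, differed by 0.46 (0.0324 with the block), a call lost without any scrambled siRNA array or vehicle replicate 2 (0.0915 to 0.121) and without the filter (0.0663). Without the block, leaving out vehicle replicate 2 moved Map2k1 to 0.22, and leaving out vehicle replicate 3 moved Pparg to 0.20 and Adam17 to -0.20. No gene of the list passed between the siRNA groups. The Pparg, Adam17, Sox9 and Map2k1 calls against vehicle are thus not differences between the siRNAs.

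Markers of cell types were read beside these values. Of 12 fibroblast and pre-adipocyte markers, 9 were tested, and 2 growth factor receptors fell against vehicle in both comparisons. Of all tested genes, 3.73% fell with CD24 siRNA and 3.6% with scrambled siRNA. The Pdgfra difference was -1.10 with CD24 siRNA and -1.04 with scrambled siRNA, and the Pdgfrb difference was -1.61 and -1.66. With the block, 4 of the 9 fell with CD24 siRNA and 5 with scrambled siRNA, beside 12.1% and 11.4% of all tested genes. Those that fell included the collagen genes Col1a2 (-0.49 and -0.59) and Col3a1 (-0.70 and -0.51). The Col3a1 call with scrambled siRNA was lost without scrambled siRNA replicate 3 (0.0853). Without the block, the Pdgfra call with CD24 siRNA was lost without any CD24 siRNA array or vehicle replicate 3 (0.0515 to 0.0602), and that with scrambled siRNA without scrambled siRNA replicate 1 or 3, without vehicle replicate 2 or 3 (0.0532 to 0.0649) and with only the 2 groups fitted (0.0643). With the block, Pdgfra had a limma adjusted p of 0.000287 with CD24 siRNA and 0.000365 with scrambled siRNA. No single array ended either of these blocked calls. No alternative ended the Pdgfrb calls.

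Of 10 adipocyte markers, 4 were tested and 0 passed with or without the block, also at an unadjusted p under 0.05 without it. Of 9 macrophage markers, 5 were tested and 0 passed without the block, with 1 at an unadjusted p under 0.05 with scrambled siRNA. Of all tested genes, 22.2% had an unadjusted p under 0.05 with CD24 siRNA and 22.7% with scrambled siRNA. With the block and scrambled siRNA, Cd14 rose (0.54, adjusted p = 0.0230) and Lyz2 fell (-0.98, 0.0430), the first lost without replicate 1 or 3 of the scrambled siRNA or vehicle arrays (0.0795 to 0.128), the second without CD24 siRNA replicate 1 or 3 or replicate 2 or 3 of the other groups (0.0511 to 0.160). Without the filter, neither passed (0.0501 and 0.0906). No macrophage marker passed between the siRNAs. The 1 endothelial and 2 epithelial markers tested did not pass with or without the block. Without the block, 1 epithelial marker had an unadjusted p under 0.05 with CD24 siRNA. Of 4 tested skeletal muscle markers, Des fell in both comparisons (-0.71 and -0.70), beside 3.73% and 3.6% of all tested genes. The other 3 had positive differences that did not pass. The median over the 4 was 0.14 with CD24 siRNA and 0.16 with scrambled siRNA. Without the block, the Des call with CD24 siRNA was lost without vehicle replicate 2 or without replicate 1 or 3 of the CD24 siRNA arrays (0.0531 to 0.0676), and that with scrambled siRNA without scrambled siRNA replicate 3 or vehicle replicate 2 (0.0801 and 0.0567). With the block, Des had a limma adjusted p of 0.00103 with CD24 siRNA and 0.00102 with scrambled siRNA. No single array ended either of these blocked calls. The part of these marker shifts in the Dlk1 values was not tested.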

How the data were processed

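The values were single-colour array signals for 9 samples. The authors deposited log2 values made with RMA and oligo, per the submitters' processing notes, which name no version. A shift shared by all genes cannot be seen in such normalized values. Probe sets were named by the platform annotation: 23521 carried 1 symbol, 1814 several and 16010 none here. All 9 arrays were fitted by group with limma 3.58.1 in R 4.3.3 (lmFit and eBayes, two-sided), with Benjamini-Hochberg adjustment over 12630 genes. The step was also run on simulated data drawn independently for each array. Those data lacked the variation that same-numbered arrays share here. They cannot show how the test behaves under it. The members and lists were chosen with earlier results of these data known. Genes named were all members, Cd24a, those passing in each list (in the fit with or without the block) or otherwise the 2 with smallest p, and at most 4 of each marker or response list. Replicate numbers, taken from the labels, paired the samples: same-numbered arrays of different groups correlated at 0.377 to 0.732 in their deviations from group means, and differently numbered ones at -0.589 to 0.116. No block is named by the labels, so the blocked fit is an alternative. Others changed the filter, normalization, probe set choice, variance model and arrays used. The blocked fit without the filter was added after seeing the data.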

Additional observations from a re-analysis of the deposited data

How the results depend on the processing

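With the replicate block, calls over all genes came to 2831 for CD24 siRNA with IBMX/Dex against vehicle and 2942 for scrambled siRNA with IBMX/Dex against vehicle, beside 840 and 876 without it, and 1 member was called in each. With each comparison fitted on its 2 groups alone, the calls were 461 and 389. The block without the filter, added after seeing the data, gave 2062 and 2299 calls, with 1 member called for CD24 siRNA. Leaving out 1 array gave 321 to 857 and 313 to 852 calls (with the block 1599 to 2647 and 1583 to 2924), and 0 members called, or 0 to 1 with the block. Dlk1 differences from vehicle then ran from -0.14 to -0.060 with CD24 siRNA and from -0.14 to -0.030 with scrambled siRNA, or with the block from -0.17 to -0.027 and from -0.16 to 0.0031, the last reversed without vehicle replicate 1. Between CD24 siRNA and scrambled siRNA, Dlk1 ran from -0.079 to 0.031, or -0.096 to 0.050 with the block, and reversed without scrambled siRNA replicate 2. Peg3 between the siRNAs ran from -0.074 to 0.43 with and without the block, reversing to -0.055 without scrambled siRNA replicate 1 and to -0.074 with the block without CD24 siRNA replicate 1. Ndn ran there from -0.082 to 0.067, reversing to 0.067 (0.066 with the block) without CD24 siRNA replicate 3, to 0.038 without scrambled siRNA replicate 2 and to 0.014 under quantile normalization. Ube3a reversed to -0.0064 for scrambled siRNA when the probe sets of a gene were averaged. The causes were not tested. No gene was called between the siRNAs in the fits above. The 3 arrays a group limit the precision.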
